A study of Arabidopsis thaliana with 15 samples.

Results

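Arabidopsis thaliana pollen was followed from the dry grain to the pollen tube grown for 4 h in liquid culture (4 h PT), and the change was described across all genes that the array measured. The material was wild-type pollen of the Columbia accession (Col-0), with no transgene, mutation or added agent in either group. The 4 arrays titled as 4 h tubes were set against the 4 arrays titled as dry pollen, 8 of the 15 arrays of the series. For 4 h PT, grains collected from open flowers by vacuum were incubated in liquid growth medium and pelleted. Dry pollen was collected in the same manner and never incubated. A further 4 arrays of pollen after 0.5 h in the medium (0.5 h PT) place each change in time, and 3 arrays of tubes grown through a pistil entered the model but are not described. Each array is an Affymetrix ATH1 chip, on which a probe set reports the abundance of a transcript as a linear signal, and every array is scaled to a 2% trimmed mean of about 500. After 4 h, 58.3 ± 6.0% of the grains had germinated, with tubes of 383.8 ± 32.1 µm, so a 4 h PT array holds RNA of tubes and of grains without a tube together. In such bulk RNA, fewer cells with a transcript and less transcript per cell cannot be told apart. The labels call the arrays of a condition biological replicates but do not say which cultures were separate. A p-value therefore measures only a spread between arrays, which the main model pools over all 15 arrays of the series.

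A mature Arabidopsis pollen grain is a dry, dormant vegetative cell that carries a pair of sperm cells and a store of mRNA and protein. On wetting, the vegetative cell resumes metabolism and extends a tube that grows only at its tip, where vesicles bring membrane and wall material, guided by calcium, ion and ROP GTPase gradients. The wall of the tube is pectin at the tip and callose behind it, and growth is paid for by respiration and fermentation of sugars taken up from outside.

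The pollen identity of the arrays was checked with marker transcripts. Only markers joined alone to a probe set count as measured, which held for 8 of 16 listed vegetative cell markers. It held for 1 of 11 sperm cell markers and 1 of 20 green tissue markers, so this check is partial. The summed signal of 8 measured vegetative cell markers was 317878 to 371342 in 4 h PT and 269388 to 326268 in dry pollen. The only sperm cell marker measured, the histone transcript MGH3 (AT1G19890), was at 8412 to 10064 in 4 h PT and 8418 to 9259 in dry pollen, and RCA (AT2G39730), the activase of Rubisco and the only green tissue marker measured, was at 53.2 to 205 and 109 to 202. Replicates of 4 h PT were somewhat less alike (Pearson r 0.928 to 0.952 over probe sets) than replicates of dry pollen (0.944 to 0.967), and arrays of 4 h PT and dry pollen correlated at 0.903 to 0.948. The 100 strongest probe sets took 30.8 to 32.1% of the summed signal in 4 h PT and 27.9 to 30.3% in dry pollen (exact permutation p = 0.0286, the smallest that 4 against 4 arrays allows, adjusted p = 0.124 over 13 array measures). The 3′ to 5′ signal ratio of a ubiquitin control, a sign of RNA integrity, was 2.11 to 3.40 in 4 h PT and 3.42 to 3.68 in dry pollen (exact permutation p = 0.0286, adjusted p = 0.124), while the 5 other control pairs overlapped. The part of these differences in the results was not tested. A probe set counted as expressed at a log2 signal of at least 8, and the arrays held 5372 ± 286 such probe sets in 4 h PT and 5158 ± 179 in dry pollen (SD, n = 4 each, exact two-sided permutation p = 0.257).

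Individual 4 h PT arrays stood apart among the rising genes. Over the 163 rises described below, replicate 4 was the highest array of 4 h PT in 146 and replicate 3 the lowest in 106. Over all 22746 probe sets the same arrays were highest in 34.5% and lowest in 24.8%. The median rise above the dry pollen mean was 5.91-fold, 5.89-fold, 4.42-fold and 11-fold on replicates 1 to 4. Without replicate 4, 138 probe sets rose, and without replicate 3, 180 did. With replicates 3 and 4 left out together, an alternative added after the data were seen, 144 rose and 8 fell.

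Many more transcripts were called as rises than as falls over 4 h in the medium. Of 22746 probe sets, 163 (0.717%) were called higher in 4 h PT and 11 (0.0484%) lower, the limits in limma being a log odds B over 3 and a change of 3-fold or more. Changes are differences of log2(signal + 64), and the 64 added makes them smaller than the ratio of the signals for weak transcripts. The 64 also limits falls, since a signal cannot go below 0, but sets no such limit on rises. The median signal of the dry pollen arrays was 74.7 to 97.8, and a transcript at that level cannot be called as a 3-fold fall. The part of this limit in the balance of rises and falls was not tested. The median rise was 6.44-fold, 69 of the 163 reached 8-fold, and the largest adjusted p among them was 0.00217. Most of the rising transcripts were weak in the dry grain, since 160 of the 163 had a mean signal at or above the limit for expressed in 4 h PT and 51 did in dry pollen (medians of the mean signals 1724 in 4 h PT and 145 in dry pollen). Together they made up 1.34, 1.41, 0.944 and 2.63% of all signal on the 4 h PT arrays, against 0.187, 0.167, 0.163 and 0.171% on the dry pollen arrays. The falls were small in level as well as in number, with a median mean signal of 27.1 in 4 h PT and 338 in dry pollen. The 4 h PT arrays lay above all dry pollen arrays in 4.41% of all probe sets and below all of them in 3.92%. Without any fold limit, at an adjusted p below 0.05, 403 probe sets (1.77%) were higher and 139 (0.611%) lower. In a fit of the 8 arrays alone, 87 rises and 4 falls were called. That fit has fewer residual degrees of freedom and takes the variance of a probe set from those arrays only. The main fit takes 1 variance per probe set as equal over all conditions, although replicates of 4 h PT were less alike than those of dry pollen. Of 84 called genes named here, 39 were not called in the 8-array fit, among them AT3G19940, AT5G09280, MBF1C, HSP101 and AT1G60420. For single genes below, the losses given are those when a single array was left out. HSP90.1, also lost in the 8-array fit, had 557 to 5142 in 4 h PT and 91.7 to 132 in dry pollen. The part of unequal spread in the lower count was not tested.

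**Figure D1:**
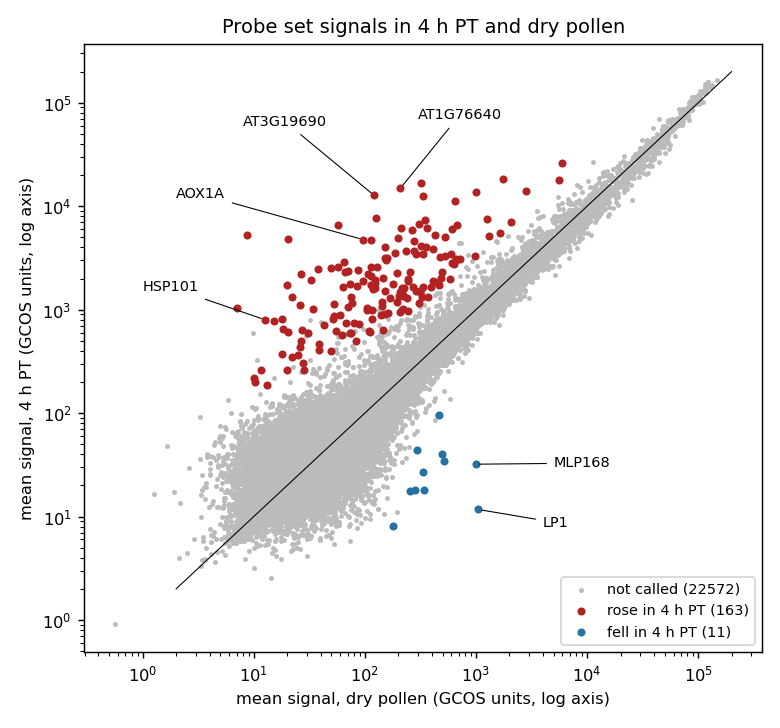
Mean signal of each of the 22746 probe sets in 4 h PT (vertical, log axis, scaled signal units) against dry pollen (horizontal, log axis), with 163 rises in red, 11 falls in blue, probe sets not called in grey and the line of equal signal in black. The rises lie in the upper left, most of them below the limit for expressed (a log2 signal of 8) in dry pollen, and the falls lie at the bottom, where 4 h PT signals are under 100.

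The largest rise of a probe set joined to a single gene was AT3G19690, which encodes a secreted protein of the CAP family that also holds pathogenesis-related protein 1. Its signal was 11813, 13241, 7561 and 18518 on the 4 h PT arrays, against 176, 113, 36.0 and 157 on the dry pollen arrays. Every 4 h PT array lay far above every dry pollen array, and the rise was 69.9-fold (log2 change 6.13 ± 0.30 SE, adjusted p = 2.92e-08). AT1G76640, a calmodulin-like protein with calcium-binding EF-hands, had 10347, 12384, 14705 and 22131 in 4 h PT, against 138, 268, 204 and 223 in dry pollen. The groups were again far apart (53.5-fold, adjusted p = 4.1e-09). AT4G12980, a membrane protein with a cytochrome b561 domain, had 5299, 5551, 2966 and 12722 in 4 h PT, against 150, 48.9, 16.4 and 11.7 in dry pollen (53.1-fold, adjusted p = 3.29e-07), with 4 h PT replicate 4 more than the others above the dry grain. AT5G35380, a protein kinase, rose 24.3-fold, and the ATP-driven transporter ABCB9 (AT4G18050) rose 21.3-fold. AT3G15860 and AT5G11820 rose 19.9-fold and 20.2-fold.

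AOX1A (AT3G22370), the alternative oxidase that lets mitochondria pass electrons to oxygen without pumping protons, was under the limit for expressed on every dry pollen array. It had 3463, 3574, 2279 and 9745 in 4 h PT, against 65.5, 248, 45 and 24.0 in dry pollen. The arrays of the groups did not overlap, and the rise was 29.5-fold (log2 change 4.88 ± 0.42 SE, adjusted p = 6.67e-06). Of 8 measured members of the alternative respiration list, no other was called (median log2 change of the list 0.02, against 0.0074 over all probe sets). NDB2, an external NADH dehydrogenase that can feed the oxidase, averaged 629 in 4 h PT and 508 in dry pollen (log2 change 0.27, adjusted p = 0.66). DIC2 (AT4G24570), a mitochondrial dicarboxylate carrier, rose 5.15-fold. Its call was lost without 4 h PT replicate 1, 3 or 4 (log2 change 2.42, 2.44 and 1.99) and without dry pollen replicate 1, 2 or 3 (2.54, 2.16 and 2.11).

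**Figure D2:**
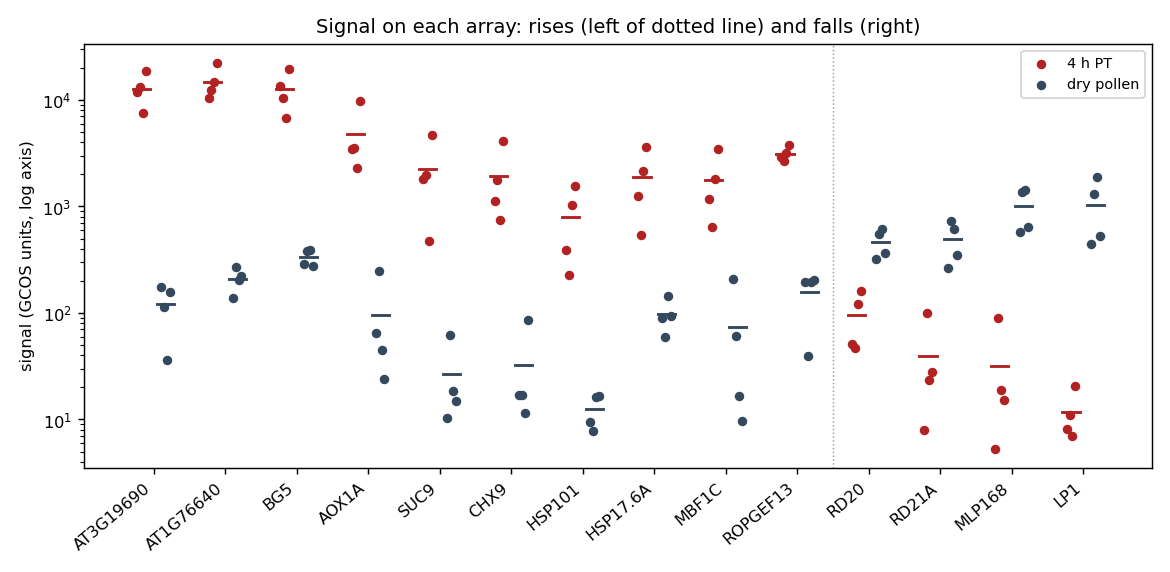
Signal (log axis, scaled signal units) on each of the 4 h PT arrays (red, left of each pair) and dry pollen arrays (dark blue, right of each pair) for 10 rises and 4 falls, with a bar at the mean of 4 arrays. In none of the 14 genes do the arrays of the groups overlap, and the fall of RD20 has the narrowest gap, with a highest 4 h PT signal of 161 and a lowest dry pollen signal of 319.

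Gene lists were drawn up by pathway and family, with earlier results of these data known. They are described by how many measured members were called, where measured means joined alone to a probe set. The part of a list that was measured varied, with 8 of 26 CBL kinases and sensors, 14 of 34 polarity and receptor genes and 7 of 7 MADS-box factors. Such naming can be tilted towards rises, so the shares are descriptions and not a test against all probe sets. Where a list had no call, its members past an unadjusted p of 0.05 are counted too, a limit that 6.9% of all probe sets passed as higher and 6.23% as lower in 4 h PT. Members named with values below although they were not called were mostly chosen after their values were seen, as were CHX3, CHX12, BGLU15, UGE3, PUB22, NAC062 and ACS6. Uptake of sugars was represented by a few large rises. Of 14 measured sugar and inositol transporters, 4 rose, 0 fell and 10 were not called, with a median log2 change of 0.38. AT3G19940, a hexose transporter of the STP family, had 2426, 2013, 585 and 5123 in 4 h PT, against 22.9, 5.73, 7.90 and 160 in dry pollen (20.6-fold, adjusted p = 6.67e-05). The sucrose transporter SUC9 (AT5G06170) had 1806, 1996, 469 and 4664 in 4 h PT, against 10.3, 62.2, 18.6 and 14.8 in dry pollen (log2 change 4.32, adjusted p = 6.52e-05). In both genes 4 h PT replicate 3 was the lowest and replicate 4 the highest of their group, and all 4 lay above dry pollen. The inositol transporter INT4 (AT4G16480) rose 17.3-fold to a mean of 6753 in 4 h PT, against 307 in dry pollen, and the hexose transporter STP4 (AT3G19930) rose 9.38-fold. SUC8, a sucrose transporter close in sequence to SUC9, averaged 64.1 in 4 h PT and 9.73 in dry pollen (log2 change 0.70, adjusted p = 0.28), and near-identical transcripts of this family can share signal on a probe set. SWEET8, a sugar transporter needed for pollen development, averaged 935 in 4 h PT and 310 in dry pollen (log2 change 1.17, adjusted p = 0.14).

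In the CHX family of cation/proton antiporters, of 17 measured, 6 rose, 0 fell and 11 were not called (median log2 change 0.54). The 6 that rose had mean signals of 17.8 to 110 in dry pollen, while members that were not called lay between 25.1 and 24521. CHX9 (AT5G22910) had 1131, 1766, 753 and 4117 in 4 h PT, against 16.9, 16.8, 11.5 and 85.0 in dry pollen (17.9-fold, adjusted p = 2.81e-05). CHX26 (AT5G01680) had 520, 926, 426 and 1360 in 4 h PT, against 11.4, 10.3, 29.8 and 19.9 in dry pollen (9.78-fold, adjusted p = 1.53e-05). The CHX26 transcript was near the floor of the array in every dry pollen sample, as was that of CHX9 in all but replicate 4. Both were clearly present in every 4 h PT sample. CHX21 (AT2G31910) rose 7.35-fold, and CHX4 (AT3G44900), CHX3 (AT5G22900) and CHX12 (AT3G44910) rose 4.53-fold, 3.73-fold and 3.64-fold. The strongest member, ATCHX8, averaged 23337 in 4 h PT and 24521 in dry pollen (log2 change −0.08, adjusted p = 0.91, and 0.037 after quantile normalization). The member written chx28 in the tables was lower, at 1408 in 4 h PT and 2439 in dry pollen (log2 change −0.79, adjusted p = 0.022), which is short of 3-fold. Single arrays mattered to this list, since the count of 6 was 3 without 4 h PT replicate 2 or 4 or dry pollen replicate 1 or 3, and 4 or 5 without any other array but 4 h PT replicate 3. CHX4 was not called without 4 h PT replicate 1, 2 or 4 (log2 change 1.99, 2.12 and 2.09) or dry pollen replicate 1 or 3 (2.12 each). CHX3 was not called without 4 h PT replicate 1, 2 or 4 (1.82, 1.72 and 1.85) or dry pollen replicate 1, 3 or 4 (1.80, 1.84 and 1.91), nor CHX12 without 4 h PT replicate 2 or 4 (1.84 and 1.57) or dry pollen replicate 1, 2 or 3 (1.82, 1.73 and 1.92).

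Glycosyl hydrolases formed another group. Of 19 measured glycosyl hydrolases of families 1 and 17, 5 rose, 0 fell and 14 were not called (median log2 change 0.14). BG5 (AT5G20340), a family 17 β-1,3-glucanase, an enzyme type that cuts callose, had 13567, 10494, 6738 and 19498 in 4 h PT, against 287, 379, 392 and 274 in dry pollen (29.9-fold, adjusted p = 8.36e-08). Its relatives BETAG4 (AT5G20330) and AT4G26830 rose 12.9-fold and 11.8-fold, and the β-glucosidases BGLU14 (AT2G25630) and BGLU15 (AT2G44450) rose 18.8-fold and 4.23-fold. The glucanase of the list most abundant in the grain was not called. AT5G20390 averaged 67905 in 4 h PT and 60015 in dry pollen (log2 change 0.17, adjusted p = 0.75).

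Pectin-modifying transcripts were among the most abundant of the grain, and hardly any were called. Of 13 pectin methylesterases and inhibitors, 0 rose and 0 fell in limma, and 2 were higher and 0 lower at an unadjusted p below 0.05. The methylesterase AT5G07430 had 175195, 133793, 161832 and 134588 in 4 h PT, against 117098, 111711, 111110 and 119846 in dry pollen, the highest mean of the list (log2 change 0.39 ± 0.17 SE, adjusted p = 0.328). Of 11 polygalacturonases and pectate lyases, 1 rose and 0 fell (median log2 change 0.20). The riser was AT5G09280, which had 2804, 3118, 556 and 5143 in 4 h PT, against 24.8, 102, 95.9 and 36.5 in dry pollen (18.8-fold, adjusted p = 9.78e-05). A weaker member, AT3G09540, averaged 218 in 4 h PT and 15.1 in dry pollen, which did not pass (log2 change 1.71, adjusted p = 0.0032), although it did without 4 h PT replicate 3 (2.05).

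Transcripts for other wall proteins were counted in a separate list. Of 15 measured members of the list of callose, cellulose-like and wall proteins, 5 rose, 0 fell and 10 were not called (median log2 change 0.63). CEL3 (AT1G71380), an endo-glucanase, had 9540, 10521, 6460 and 17934 in 4 h PT, against 850, 548, 574 and 608 in dry pollen (14.9-fold, adjusted p = 2.4e-07). The arabinogalactan protein AGP15 (AT5G11740) rose 11.1-fold, and EXPA16 (AT3G55500), an expansin that loosens walls, 9.24-fold. UGE1 (AT1G12780) and UGE3 (AT1G63180), epimerases that supply UDP-galactose for wall polymers, rose 8.16-fold and 5.89-fold. EXPA4, an expansin already strong in the grain, averaged 79590 in 4 h PT and 74161 in dry pollen (log2 change 0.10, adjusted p = 0.84).

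Among subtilisin-like and other secreted proteases, 4 of 19 rose, 1 fell and 14 were not called (median log2 change 0.05). The subtilases AT4G21323 and AT1G66220 rose 20.8-fold and 15.5-fold, with means of 2556 and 2306 in 4 h PT and 57.2 and 65.9 in dry pollen. AT2G21430, a papain-type cysteine protease, rose 8.89-fold. AT5G45650, a further subtilase, rose 6.44-fold, but was not called without 4 h PT replicate 1 or 2 (log2 change 2.60 and 2.64) or dry pollen replicate 1 or 4 (2.51 and 2.66). The member that fell, the cysteine protease RD21A, is described with the falls.

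Lipid-cleaving enzymes gave 1 rise and 1 fall among 15 measured GDSL lipases and carboxylesterases. CXE18 (AT5G23530), a carboxylesterase, had 1236, 1576, 699 and 3140 in 4 h PT, against 38.8, 20.8, 119 and 75.1 in dry pollen (12.4-fold, adjusted p = 1.83e-05). Some of the largest rises lay on probe sets that match several genes and can be given only by their array names, and the 4 with the largest rises are given, a choice made after the values were seen. Probe set 252756_s_at had 4774, 5029, 1469 and 9823 in 4 h PT, against 10.1, 7.11, 9.56 and 7.91 in dry pollen (60.5-fold). This signal was at the floor in all dry pollen arrays. The mean signal of 249243_s_at was 16695 in 4 h PT and 323 in dry pollen (41.2-fold), that of 254439_s_at 4823 and 20.5 (46.0-fold), and that of 263397_s_at 7607 and 126 (38.6-fold). The study's supplement describes probe set 263397 as a GDSL-motif lipase/hydrolase that matches multiple genes. Its rise is therefore outside the count of 15 GDSL lipases and carboxylesterases above.

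**Figure D3:**
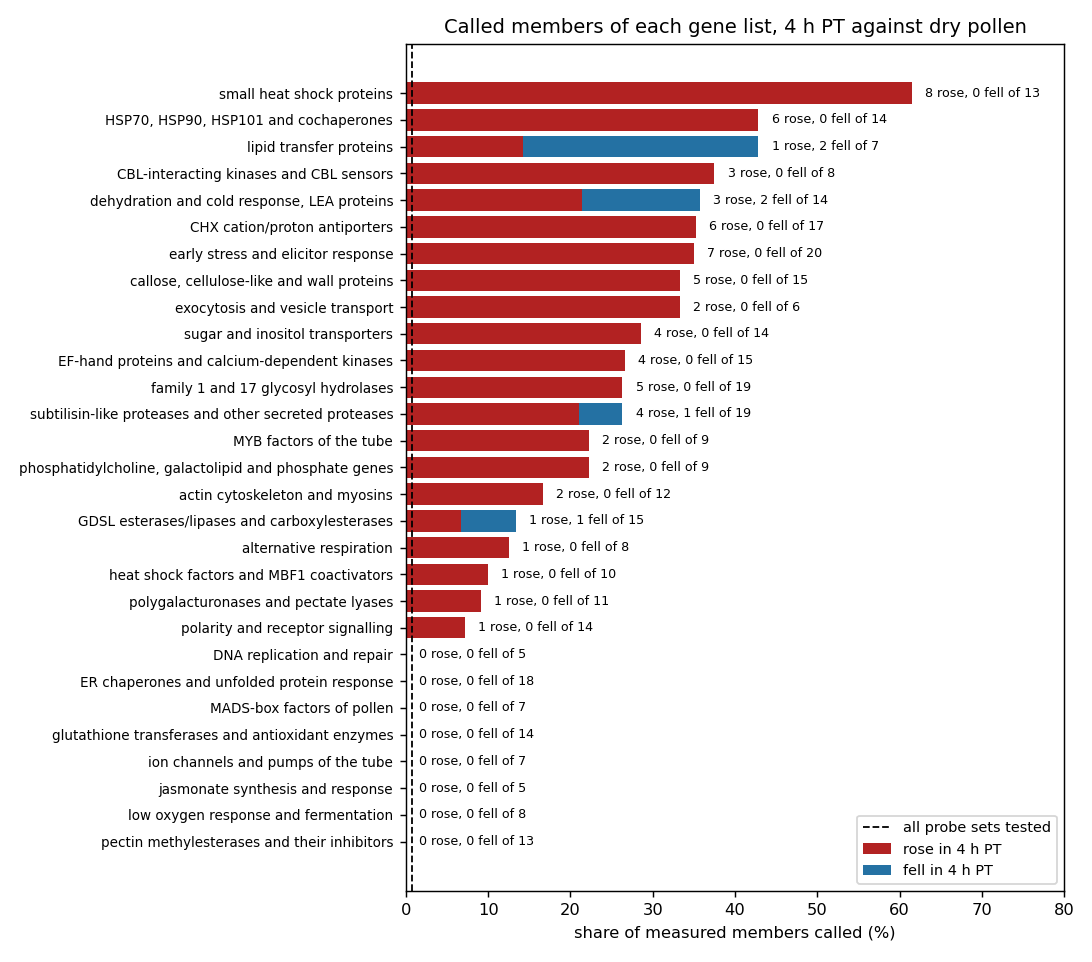
Share of the measured members of each gene list (horizontal, in percent) that rose (red) or fell (blue) in 4 h PT against dry pollen, with the counts beside each bar and a dashed line at the 0.765% of all probe sets that changed. The lists were drawn up with earlier results of these data known, so the bars are no test against the dashed line. The list of the study's insertion lines is left out. Among the lists drawn, the small heat shock proteins have the longest bar with 8 of 13, and several lists, such as the pectin methylesterases with 0 of 13, have no bar.

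Heat shock proteins rose in number. Of 13 measured small heat shock proteins, chaperones that hold unfolded proteins in solution, 8 rose, 0 fell and 5 were not called (median log2 change 2.70). Of 14 members of the HSP70, HSP90, HSP101 and cochaperone list, 6 rose, 0 fell and 8 were not called (median 2.31). HSP17.6A (AT5G12030) had 1252, 538, 2151 and 3640 in 4 h PT, against 89.8, 60.0, 145 and 92.8 in dry pollen (10.1-fold, adjusted p = 0.000142). AT1G54050, a small heat shock protein, had 797, 772, 3396 and 4430 in 4 h PT, against 67.1, 58.3, 32.0 and 127 in dry pollen (14.0-fold, adjusted p = 0.00015). HSP101 (AT1G74310), the disaggregase needed for tolerance of severe heat, had 388, 227, 1038 and 1546 in 4 h PT, against 9.44, 7.84, 16.3 and 16.7 in dry pollen (9.09-fold, adjusted p = 0.000301). In all 3 genes 4 h PT replicates 3 and 4 were well above replicates 1 and 2, and all 4 were above dry pollen. Other rises included AT2G29500 at 11.8-fold, HSP17.4 (AT3G46230) at 9.54-fold, Hsp70-2 (AT5G02490) at 9.93-fold and BAG6 (AT2G46240), a cochaperone that binds calmodulin, at 8.94-fold. HSP90.1 (AT5G52640), a cytosolic HSP90, rose 8.76-fold, but its call was lost without 4 h PT replicate 3 (log2 change 3.02) and without dry pollen replicate 1, 2, 3 or 4 (3.12, 3.07, 3.18 and 3.15). MBF1C (AT3G24500), a coactivator of the heat response, had 1165, 637, 1826 and 3501 in 4 h PT, against 207, 60.9, 16.7 and 9.58 in dry pollen (13-fold, adjusted p = 0.000121). Of 10 measured heat shock factors and coactivators no other was called, and HSFA2, the factor that sustains the heat response, averaged 38.7 in 4 h PT and 9.75 in dry pollen (log2 change 0.36, adjusted p = 0.73).

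The spread among 4 h PT arrays ran one way for heat shock proteins and another for the transporters and wall enzymes, a pattern noticed after the data were seen and given without a test. In 14 of 14 rises of the heat shock protein lists, replicates 3 and 4 were both above replicates 1 and 2, and replicate 2 was the lowest in 13. In 24 of 24 rises of the transporter, glycosyl hydrolase, wall and protease lists, replicate 3 was the lowest array of 4 h PT, as it was in 106 of all 163 rises. Lists outside these groups varied. Replicate 1 was the lowest in 4 of 4 rises of EF-hand proteins and calcium-dependent kinases and in 4 of 7 of the early stress list, and replicate 3 in 2 of 2 of the exocytosis list. For the small heat shock proteins that rose, the median rise above the dry pollen mean was 6.10-fold, 3.67-fold, 12.4-fold and 19.2-fold on replicates 1 to 4, and for the sugar and inositol transporters that rose it was 18.9-fold, 19.4-fold, 6.28-fold and 41.9-fold. With replicates 3 and 4 left out together, 7 small heat shock proteins and 4 members of the HSP70, HSP90, HSP101 and cochaperone list still passed. The count of 6 in that list was 8 without 4 h PT replicate 2, 4 without 4 h PT replicate 4, and 3 without 4 h PT replicate 3 or any single dry pollen array. In the fit of the 8 arrays alone, 3 small heat shock proteins and 0 of the HSP70, HSP90, HSP101 and cochaperone list passed in limma, while over all arrays 11 of those 14 were higher at an unadjusted p below 0.05, as were 6.9% of all probe sets.

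**Figure D4:**
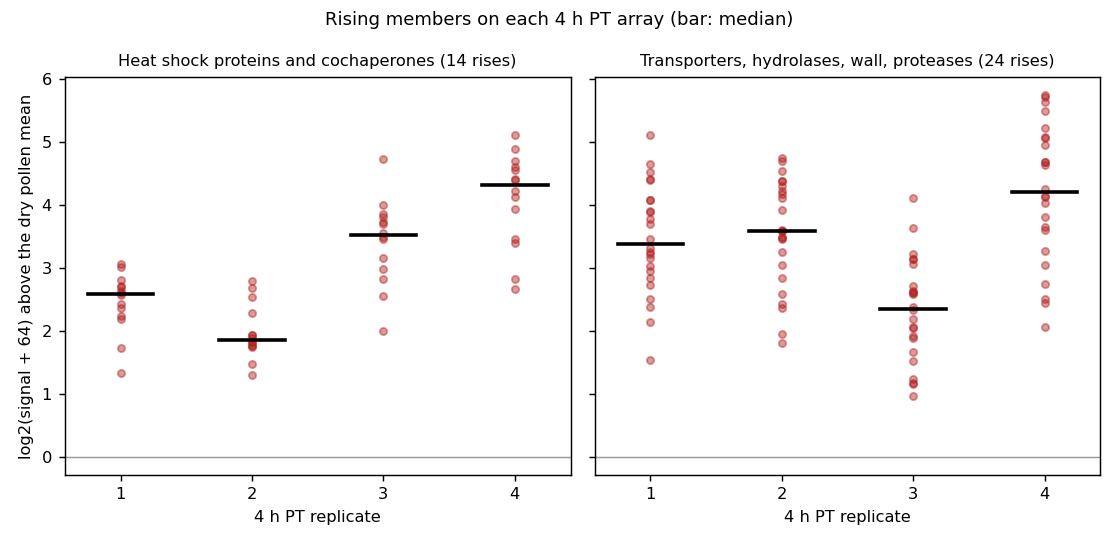
Rise of each called member above its dry pollen mean, as a difference of log2(signal + 64) (vertical), on 4 h PT replicates 1 to 4 (horizontal), for 14 heat shock proteins and cochaperones (left) and 24 transporters, glycosyl hydrolases, wall proteins and proteases (right), with a bar at the median. Replicates 3 and 4 are high on the left, while on the right replicate 3 is the lowest array.

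Chaperones of the endoplasmic reticulum (ER) were not called. Of 18 measured members of the list of ER chaperones and the unfolded protein response, 0 rose and 0 fell in limma, and 2 were higher and 1 lower at an unadjusted p below 0.05 (median log2 change 0.07). ATERDJ3B (AT3G62600), a cochaperone of BiP in the ER, was the strongest, with 2251, 2205, 2499 and 1726 in 4 h PT, against 4126, 2839, 3298 and 3676 in dry pollen. It was lower on every 4 h PT array (log2 change −0.67 ± 0.16 SE, adjusted p = 0.039), short of the 3-fold limit. BZIP60, a transcription factor activated by unfolded ER proteins, averaged 2136 in 4 h PT and 1660 in dry pollen (log2 change 0.35, adjusted p = 0.35).

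Transcripts known from early responses to stress and elicitors rose in number. Of 20 measured, 7 rose, 0 fell and 13 were not called, with a median log2 change of 1.21. AT1G74450 had 4204, 4815, 5417 and 8985 in 4 h PT, against 262, 225, 318 and 251 in dry pollen (17.4-fold, adjusted p = 1.93e-07). PMZ (AT3G28210), a stress-induced zinc finger protein, had 4854, 5000, 6804 and 7287 in 4 h PT, against 729, 705, 623 and 370 in dry pollen (9.12-fold, adjusted p = 3.29e-07). Both were tight within 4 h PT compared with the heat shock proteins. The ubiquitin ligases PUB23 (AT2G35930) and PUB22 (AT3G52450) rose 16.1-fold and 5.13-fold, the transcription factor NAC062 (AT3G49530) rose 4.71-fold and ACS6 (AT4G11280), an enzyme of ethylene synthesis, 3.90-fold. ACS6 was not called without 4 h PT replicate 3 or 4 (log2 change 1.95 and 1.78) or dry pollen replicate 2, 3 or 4 (1.99, 1.75 and 1.92). The zinc finger factor ZAT6 ran the other way without being called, at 93.6 in 4 h PT and 196 in dry pollen (log2 change −0.78, adjusted p = 0.40). The jasmonate list had 0 called of 5 measured, with 1 higher and 0 lower at an unadjusted p below 0.05 in limma, and MYC2 (AT1G32640), its master regulator, averaged 149 in 4 h PT and 18.7 in dry pollen (log2 change 1.33, adjusted p = 0.004). No measured jasmonate gene had a mean signal at or above the limit for expressed in either group, which leaves little room for a called fall.

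Calcium signalling held rises as well. Of 15 measured EF-hand proteins and calcium-dependent kinases, 4 rose, 0 fell and 11 were not called (median log2 change −0.09). After AT1G76640 came AGD11 (AT3G07490), an EF-hand protein, with 4800, 5211, 6047 and 13044 in 4 h PT, against 316, 288, 281 and 499 in dry pollen (16.8-fold, adjusted p = 2.05e-06). The calcium-dependent kinase CPK34 was strong in both, at 14603 in 4 h PT and 16110 in dry pollen (log2 change −0.15, adjusted p = 0.77). The count of 4 was 2 without dry pollen replicate 1, 2 or 3 and 5 without 4 h PT replicate 1. The 2 that were lost in this way were CP1, at log2 changes of 2.41, 2.32 and 2.38 without those dry pollen arrays, and AT3G10300, at 2.10, 2.13 and 2.07, and CP1 was not called without 4 h PT replicate 2 or 3 or dry pollen replicate 4 either (2.48, 2.50 and 2.23). Of 8 measured CBL-interacting kinases and CBL calcium sensors, 3 rose and 0 fell. CIPK15 (AT5G01810) had 3116, 2960, 1787 and 5105 in 4 h PT, against 527, 461, 395 and 533 in dry pollen (5.74-fold, adjusted p = 2.59e-05). CIPK13 (AT2G34180) rose 6.84-fold. CIPK18 (AT1G29230) rose 4.50-fold over all arrays, but its call was lost without 4 h PT replicate 1 (log2 change 2.07) and without dry pollen replicate 1, 2 or 4 (2.13, 1.96 and 2.17).

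ROPGEF13 (AT3G16130), an activator of the ROP GTPases that set the growing tip, was called alone among 14 measured polarity and receptor genes. It had 2930, 2670, 3187 and 3740 in 4 h PT, against 195, 39.6, 196 and 204 in dry pollen. The 4 h PT arrays agreed closely with each other, and the rise was 15.2-fold (log2 change 3.93 ± 0.27 SE, adjusted p = 6.8e-07). The receptor kinases that guard tube integrity were not called, with ANX1 at 14328 in 4 h PT and 11620 in dry pollen (log2 change 0.27, adjusted p = 0.62) and ANX2 at 36123 and 32501 (0.14, adjusted p = 0.75). RALFL4, a peptide ligand, averaged 114378 in 4 h PT and 91179 in dry pollen (0.32, adjusted p = 0.36). In the exocytosis list 2 of 6 rose and 0 fell (median log2 change 0.99). RABA1c (AT5G45750), a Rab GTPase of secretory vesicles, had 1263, 1526, 929 and 2735 in 4 h PT, against 252, 228, 137 and 283 in dry pollen (5.50-fold, adjusted p = 6.37e-05). SYP122 (AT3G52400), a syntaxin of the plasma membrane, rose 5.30-fold, but was not called without 4 h PT replicate 1 (log2 change 2.32) or dry pollen replicate 2, 3 or 4 (2.29, 2.38 and 2.40). Without 4 h PT replicate 3, 3 members of the list passed.

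Most transcripts of the actin machinery were not called. Of 12 measured actins, actin-binding proteins and myosins, 2 rose and 0 fell (median log2 change −0.03). The actin ACT1 averaged 42759 in 4 h PT and 40646 in dry pollen (log2 change 0.06, adjusted p = 0.93, and −0.046 without 4 h PT replicate 2). The formin AT1G59910, which starts actin filaments, rose 3.87-fold, but not without dry pollen replicate 3 (log2 change 1.88). The fimbrin AT5G55400, which bundles them, rose 3.52-fold and kept its call only without 4 h PT replicate 1 or dry pollen replicate 1, since it was lost without 4 h PT replicate 2, 3 or 4 (1.86, 1.89 and 1.58) and without dry pollen replicate 2, 3 or 4 (1.86, 1.57 and 1.76). The list of ion channels and pumps had 0 called of 7, with 1 higher and 2 lower at an unadjusted p below 0.05 in limma. SPIK (AT2G25600), the inward potassium channel of pollen, had 17782, 16442, 16639 and 13793 in 4 h PT, against 24860, 26126, 24571 and 24416 in dry pollen. All 4 h PT arrays were below all dry pollen arrays, by a modest amount (log2 change −0.63 ± 0.14 SE, adjusted p = 0.027). The proton pump HA9 averaged 708 in 4 h PT and 1625 in dry pollen (−1.04, adjusted p = 0.026).

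Among MYB transcription factors of the tube, 2 of 9 measured rose, 0 fell and 7 were not called (median log2 change 1.02). MYB120 (AT5G55020), which acts with related factors in the release of sperm by the tube, had 983, 1149, 740 and 1508 in 4 h PT, against 216, 164, 166 and 28.8 in dry pollen (5.86-fold, adjusted p = 0.000168). AT5G04760, a MYB-related protein, had 571, 352, 569 and 1013 in 4 h PT, against 43.7, 34.1, 27.9 and 113 in dry pollen (5.69-fold, adjusted p = 0.000322). Another member, AT5G61620, averaged 1447 in 4 h PT and 478 in dry pollen, just under the fold limit (log2 change 1.46, adjusted p = 6.1e-05). MYB101, which acts with MYB120, was abundant in both, at 26200 in 4 h PT and 22334 in dry pollen (0.23, adjusted p = 0.64). The MADS-box factors of pollen had 0 called of 7, with 0 higher and 2 lower at an unadjusted p below 0.05 in limma. Their strongest member, AGL18 (AT3G57390), averaged 21291 ± 3540 in 4 h PT and 26467 ± 1015 in dry pollen (SD, n = 4 each, log2 change −0.33, adjusted p = 0.455).

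Dehydration-related transcripts moved in both directions. Of 14 measured members of the list of dehydration and cold response and LEA proteins, 3 rose, 2 fell and 9 were not called, with a median log2 change of 0.08. AT2G23120, an LEA protein, had 2681, 3305, 2661 and 4693 in 4 h PT, against 314, 607, 753 and 425 in dry pollen (5.86-fold, adjusted p = 0.000132), a call that held without each single array. LEA3 (AT1G02820), a further LEA protein, had 1655, 1651, 260 and 3218 in 4 h PT, against 38.2, 30.9, 181 and 88.4 in dry pollen. Its lowest 4 h PT array came close to its highest dry pollen array, and the rise of 9.65-fold (adjusted p = 0.00217) was called without 4 h PT replicate 3 or dry pollen replicate 3 but not without 4 h PT replicate 1, 2 or 4 (log2 change 3.15, 3.15 and 2.84) or dry pollen replicate 1, 2 or 4 (3.13, 3.09 and 3.32). TIL (AT5G58070), a lipocalin, rose 3.44-fold, and was lost without 4 h PT replicate 1, 3 or 4 (1.85, 1.85 and 1.54) or dry pollen replicate 1, 2 or 3 (1.80, 1.69 and 1.73). COR47, a dehydrin, averaged 136 in 4 h PT and 583 in dry pollen (log2 change −1.70, adjusted p = 0.0063), and, of the single omissions, was called lower without 4 h PT replicate 4 (−1.93). When single arrays were left out, the list had 1 or 2 rises and 0 to 2 falls.

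Phosphate and lipid genes gave 2 rises among 9 measured. AT2G38920, a protein with the SPX domain found in phosphate sensing, had 826, 850, 570 and 1403 in 4 h PT, against 250, 198, 99.0 and 65.9 in dry pollen (4.57-fold, adjusted p = 0.000282). PPCK2 (AT3G04530), the kinase that activates phosphoenolpyruvate carboxylase, rose 4.37-fold, but not without 4 h PT replicate 2 (log2 change 2.07) or dry pollen replicate 1 (2.07). Of 14 glutathione transferases and antioxidant enzymes none was called in limma, with 0 higher and 2 lower at an unadjusted p below 0.05, and the strongest, GSTF8 (AT2G47730), had 3034, 3561, 1367 and 994 in 4 h PT, against 2447, 3035, 4156 and 4294 in dry pollen (log2 change −0.77, adjusted p = 0.323). The groups overlapped, with 4 h PT replicates 3 and 4 the lowest of the 8 arrays. Of 8 genes of the low oxygen response and fermentation none was called, with 0 higher and 2 lower at an unadjusted p below 0.05, and SUS1 (AT5G20830), a sucrose synthase induced by low oxygen, averaged 156 ± 92 in 4 h PT and 180 ± 31 in dry pollen (SD, n = 4 each, log2 change −0.23, adjusted p = 0.802). No member of this list had a mean signal at or above the limit for expressed in either group. Such weak signals leave little room for a called fall.

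The falls were few, and the largest was a transcript known from the surface of flowers and leaves. LP1 (AT2G38540), a lipid transfer protein of epidermal cell walls, had 8.08, 11.1, 6.96 and 20.7 in 4 h PT, against 445, 1303, 1892 and 528 in dry pollen. It was at the floor in all 4 h PT arrays, and dry pollen replicates 2 and 3 were the highest (12.5-fold lower, log2 change −3.65 ± 0.33 SE, adjusted p = 9.88e-06). MLP168 (AT1G35310), a member of the major latex protein family, had 5.33, 88.7, 19.0 and 15.1 in 4 h PT, against 570, 1356, 1435 and 643 in dry pollen (10.8-fold lower, adjusted p = 5.44e-05). The GDSL lipase AT5G45950 had 32.3, 12.8, 73.7 and 17.7 in 4 h PT, against 272, 760, 755 and 258 in dry pollen (5.44-fold lower, adjusted p = 0.000283). Dry pollen replicates 2 and 3 were again well above replicates 1 and 4. RD21A (AT1G47128), the cysteine protease named above, had 7.99, 100, 23.5 and 27.7 in 4 h PT, against 266, 738, 609 and 352 in dry pollen (5.29-fold lower, adjusted p = 0.000179). LTP3 (AT5G59320), a lipid transfer protein, and AT4G18425 fell 3.32-fold and 3.34-fold. RD20 (AT2G33380), a caleosin of oil bodies, was at 46.8 to 161 in 4 h PT and 319 to 620 in dry pollen (3.37-fold lower), but was called only without dry pollen replicate 1 or 4 h PT replicate 4, and lost without 4 h PT replicate 1, 2 or 3 (log2 change −1.62, −1.60 and −1.84) or dry pollen replicate 2, 3 or 4 (−1.67, −1.61 and −1.84). AT1G13930, from the dehydration list, fell 3.95-fold, but not without 4 h PT replicate 1, 2 or 4 (−1.96, −1.93 and −2.01) or dry pollen replicate 2 or 3 (−1.75 and −1.89).

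Markers of epidermis and floral surfaces include 2 of the falls. Of 5 measured, 2 fell (LP1 and LTP3), 0 rose and 3 were not called, and the summed signal of the list was 84.6 to 399 in 4 h PT and 956 to 2701 in dry pollen (exact permutation p = 0.0286, adjusted p = 0.124). LP1 and LTP3 made up most of this sum in dry pollen and were already called as falls, so its p-value is no separate support. The 3 members that were not called summed to 143, 48.5, 168 and 308 in 4 h PT, against 223, 472, 502 and 258 in dry pollen. That sum was mostly lower too, with an overlap, and the highest log2 change of the list was 0.113. On the full list dry pollen replicates 2 and 3 were the highest, at 2127 and 2701. The summed signal of 3 tapetum and anther wall markers was 16.5 to 188 in 4 h PT and 53.6 to 174 in dry pollen. The part of floral surface RNA in the falls was not tested. Among 7 measured lipid transfer proteins the called members went both ways, since AT4G08670 had 3988, 4356, 1876 and 10891 in 4 h PT, against 267, 674, 406 and 369 in dry pollen (9.35-fold higher, adjusted p = 0.000183). AT1G18280, also strong in the tube, averaged 4445 in 4 h PT and 709 in dry pollen, and was not called over all arrays (log2 change 2.26, adjusted p = 0.0063), but was without 4 h PT replicate 3 (2.78).

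The 0.5 h PT arrays divide the programme in time. At 0.5 h, set against dry pollen, 6 probe sets (0.0264%) were called higher and 8 (0.0352%) lower, and at 4 h, set against 0.5 h, 116 (0.51%) were called higher and 0 lower in limma. At an unadjusted p below 0.05 this later step had 1360 higher (5.98%) and 1181 lower (5.19%), and 34 (0.149%) were lower at an adjusted p below 0.05. These comparisons share arrays with each other and with the main one, so their values are set side by side only. For the 163 rises the median log2 change was 0.44 over the step to 0.5 h and 2.27 over the step that followed, and 130 of them had moved by less than 2-fold at 0.5 h. For the 11 falls the medians were −2.11 and −0.01, with the change at 0.5 h between −3.55 and −1.48 in every member.

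Transcripts that were already high at 0.5 h included AT1G76640, which averaged 208 ± 54 in dry pollen, 3191 ± 337 at 0.5 h and 14892 ± 5144 at 4 h (SD, n = 4 each). Its log2 change was 3.60 over the earlier step (adjusted p = 3.48e-06) and 2.15 over the later one (adjusted p = 0.000112). AT1G74450 averaged 264, 2455 and 5855 at the 3 stages and PMZ 607, 2297 and 5986. AT5G04760 had reached its later level by 0.5 h, with means of 54.7, 591 and 626, a log2 change of 2.43 (adjusted p = 0.00427) over the earlier step and 0.08 (adjusted p = 0.974) over the later one. AOX1A was near its dry level at 0.5 h, at 95.8 ± 103 in the dry grain, 104 ± 62 at 0.5 h and 4765 ± 3371 at 4 h. AT5G35380 averaged 114, 102 and 4682 and AT3G19940 49.1, 16.4 and 2537, and in these 3 genes the dry pollen and 0.5 h arrays overlapped. STP4 averaged 275, 200 and 3649, with every 0.5 h array below every dry pollen array (log2 change −0.37 over the earlier step, adjusted p = 0.99). The small heat shock protein HSP17.4 averaged 318, 678 and 4109, and HSP101 averaged 12.6, 45.5 and 800. The falls had reached their low level by 0.5 h: LP1 averaged 1042 ± 686 in dry pollen, 17.4 ± 8.4 at 0.5 h and 11.7 ± 6.2 at 4 h, and RD21A averaged 491, 24.3 and 39.8. On the 0.5 h PT arrays the 11 falls made up 0.00114 to 0.00137% of all signal, against 0.00986 to 0.0229% on dry pollen arrays.

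**Figure D5:**
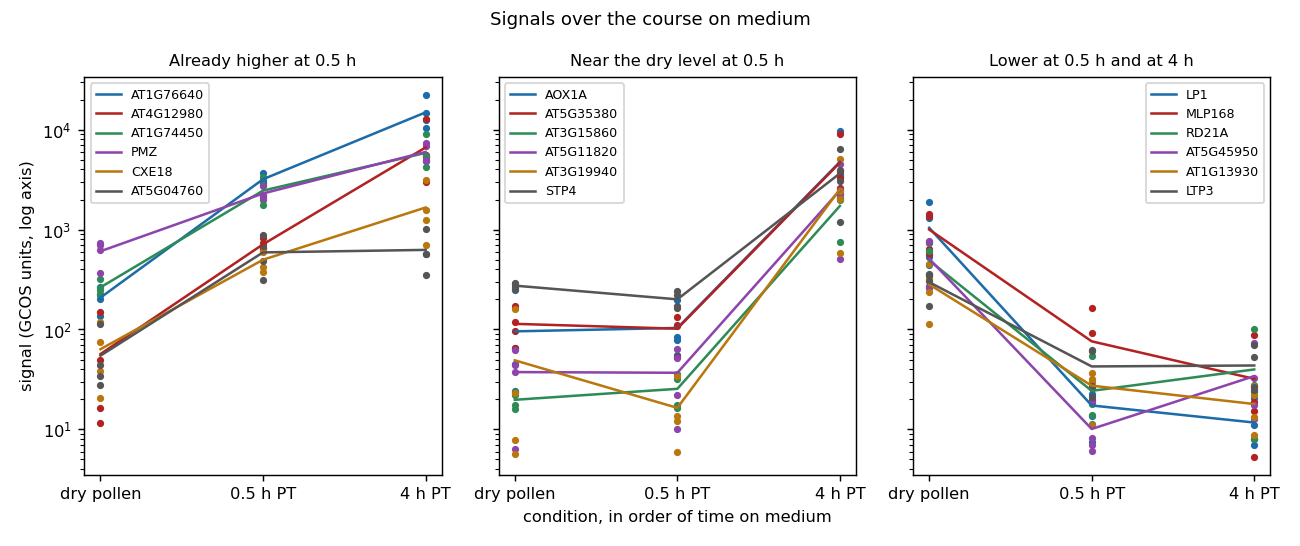
Signal (vertical, log axis, scaled signal units) in the dry grain and after 0.5 h and 4 h in the medium (horizontal, in order of time) for 6 transcripts already higher at 0.5 h, 6 near the dry level at 0.5 h and 6 that were lower at 0.5 h and at 4 h. Points are the 4 arrays of each condition and lines join the means, and AT5G04760 (left) is the transcript that levels off after 0.5 h while LP1 (right) is down by 0.5 h.

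The study examined insertion lines of genes picked for a higher level in 4 h PT than in dry pollen on these arrays (23 genes, 22 measured here), and of others picked on tubes grown through a pistil, which are not described. Of the 22, 21 rose and 0 fell (median log2 change 3.15), and since the genes were selected for this rise, the count is not independent evidence. AT1G60420, a nucleoredoxin-like protein, had 1294, 2297, 2672 and 9926 in 4 h PT, against 162, 102, 201 and 137 in dry pollen (14.5-fold, adjusted p = 0.000109). AT5G10695 had 3312, 3434, 4162 and 4558 in 4 h PT, against 458, 304, 326 and 539 in dry pollen (8.45-fold, adjusted p = 3.29e-07), and its 4 h PT arrays lay close together. OCT2 (AT1G79360), an organic cation transporter, rose 3.70-fold. The uncalled member, the EF-hand protein AT2G46600, had 785, 1183, 885 and 1597 in 4 h PT, against 328, 311, 280 and 447 in dry pollen. Its arrays did not overlap, but the change of 1.5 on the log2 scale was under 3-fold (adjusted p = 0.001), and it was called without 4 h PT replicate 1 or 3 or dry pollen replicate 4 (log2 change 1.64, 1.59 and 1.62).

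Of the strongest transcripts that were not called, AT3G28750 averaged 165123 ± 11581 in 4 h PT and 146404 ± 17948 in dry pollen (SD, n = 4 each, log2 change 0.18, adjusted p = 0.72), and the groups overlapped. AT3G07820, a polygalacturonase, averaged 143846 ± 5306 in 4 h PT and 123915 ± 8444 in dry pollen (0.22, adjusted p = 0.57). After quantile normalization both changes turned round, to −0.052 and −0.060. AT1G10770, an inhibitor of pectin methylesterase, averaged 146426 ± 8327 in 4 h PT and 119513 ± 12032 in dry pollen (SD, n = 4 each, log2 change 0.30, adjusted p = 0.481). AT1G78460, a protein of the SOUL heme-binding family, averaged 143116 ± 7197 in 4 h PT and 115562 ± 2618 in dry pollen (0.31, adjusted p = 0.345). The vegetative cell marker AT5G45880, a pollen allergen-like protein, averaged 113022 ± 4957 in 4 h PT and 87426 ± 7394 in dry pollen (0.37, adjusted p = 0.282). None of these transcripts passed the test.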

How the data were processed

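RNA of 4 h PT, 0.5 h PT, dry pollen and tubes grown through a pistil was hybridized to ATH1 arrays. The deposited values are intensities per probe set on a linear scale, which the authors computed and scaled in GCOS, Affymetrix software named in the processing notes (version not given in the sources used here). Each array has a 2% trimmed mean near 500. The study's own expression values were made with RMA, which starts from probe-level files that are not used here, so that summary could not be repeated and folds can differ from it. Arrays were grouped by the titles their submitters gave.

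Of 22810 probe sets, 64 controls were left out. For the other 22746, log2(signal + 64) was fitted in 1 linear model over all 15 arrays with a mean per condition, using lmFit and eBayes of limma 3.58.1 under R 4.3.3 without a variance trend (11 residual and 3.97 prior degrees of freedom). A probe set was called at B above 3 and at least 3-fold, limits taken from the methods of the study. Adjusted p-values are Benjamini-Hochberg over all 22746. Array measures were compared by two-sided exact permutation of 4 against 4 arrays, whose smallest p is 0.0286. Tables were handled in Python 3.11.15 with pandas 2.3.3.

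Probe sets were named from the array's platform table through RefSeq loci (13268) and otherwise from locus codes in the study's supplementary tables (1971). Probe sets with several genes (580), with sources that differ (150) or with no name (6777) were tested but not named. Of the rises 147 of 163 have 1 gene and of the falls 8 of 11, against 15239 of all 22746 probe sets tested. Naming can be tilted towards rises, because those tables list genes the study found changed.

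The genes named are up to 15 called rises and 15 called falls with the largest changes, up to 4 called members of each list (or the strongest member where none was called), the genes of the insertion lines, and up to 5 strongest uncalled probe sets. Other list members were picked after their values were seen. The members and lists were chosen with earlier results of these data known, and values of the study's tables had been seen. A planned search of promoters for motifs was not run, because no promoter sequences were used.

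In data simulated with known changes in 4 h PT, the fit found 45 of 50 rises and 46 of 50 falls of 4-fold, 49 of 50 rises and 50 of 50 falls of 8-fold, and made 0 false calls over 22746 probe sets. The changed probe sets of this simulation were not the weakest or strongest of dry pollen, while the real rises had a median dry signal of 145. Its noise was normal, with the same spread in every condition, no effect of single arrays and no floor for falls. The recovery and the 0 false calls therefore need not hold for the real arrays. The number of arrays limits precision. Alternatives were other offsets (16, and 4 times the main one), quantile normalization, median centring, a filter on low signals, fits of 8 or 12 arrays, adjusted p limits, a variance trend, a replicate block and the omission of each array.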

Additional observations from a re-analysis of the deposited data

Results flagged for a closer look

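In 270 groups of 4 arrays that were looked at, for the genes named and the array measures, 21 held an array whose gap to the nearest other array took up a larger part of the range of its group (of log2(signal + 64) for genes) than Dixon's 95% limit. Chance gives such a gap in about 1 in 20 groups.

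Of the 4 h PT arrays, replicate 4 was the high one for ABCB9 at 11038 (others 4383 to 4587), CP1 at 4513 (937 to 1085), TIL at 2159 (985 to 1104) and the heat shock factor HSFA2 at 118 (8.50 to 16.6). Replicate 3 was the low one for AT3G15860 at 755 (others 1995 to 2077), BETAG4 at 1274 (3189 to 3811) and HA9 at 672 (717 to 726). These are the arrays that were most often highest and lowest over the 163 rises. In the array measures, the 3′ to 5′ ratio was 2.50 for a GAPDH control on replicate 3 (others 1.55 to 1.69), 0.684 for an actin control on replicate 2 (others 0.0414 to 0.0927) and 8.62 for another actin control on replicate 4 (others 0.942 to 1.38).

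Of the dry pollen arrays, replicate 1 was high for HSP17.4 at 506 (others 243 to 275) and ANX1 at 13642 (10808 to 11207), and low for RCA at 109 (187 to 202), which is also the whole summed signal of green tissue markers, 109. Replicate 2 was low for ROPGEF13 at 39.6 (others 195 to 204), and high for NAC062 at 116 (57.4 to 63.0) and UGE3 at 332 (210 to 222). Replicate 3 was low for CHX21 at 9.20 (others 59.3 to 73.2) and high for CPK34 at 16888 (15825 to 15866) and AT3G07820 at 136516 (118621 to 120714), and replicate 4 was high for CHX9 at 85.0 (others 11.5 to 16.9). The groups of 4 h PT and dry pollen did not overlap in ABCB9, CP1, TIL, AT3G15860, BETAG4, HSP17.4, ROPGEF13, NAC062, UGE3, CHX21 or CHX9.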

How the results depend on the processing

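The 163 rises and 11 falls kept their balance under every alternative run, in that rises outnumbered falls. Every one of these fits adds an offset, which limits the falls of weak transcripts. Quantile normalization gave 156 and 12 (153 and 11 of the original calls among them), median centring 167 and 11, the smaller offset of 16 gave 155 and 11, the filter on low signals 159 and 11, the fit of 12 arrays 142 and 9, a variance trend 191 and 12, and an adjusted p below 0.05 with 3-fold 203 and 14. Counts moved more under an offset 4 times as large (109 rises and 2 falls), in the fit of 8 arrays (87 and 4), and at an adjusted p below 0.05 with 2-fold (313 and 53) or no fold limit (403 and 139). With fewer arrays the fit has fewer residual degrees of freedom and takes the variance from those arrays only. A larger offset lowers the fold of weak transcripts. Leaving out single arrays gave 138 to 180 rises and 8 to 13 falls. Leaving out 4 h PT replicates 3 and 4 together, chosen after seeing the data, gave 144 and 8.

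With the replicate number as a block the counts were 154 and 10. Over all probe sets, the correlations of same-numbered deviations of 4 h PT and dry pollen were −0.01, 0.04, −0.01 and 0.02. Most probe sets were under the limit for expressed, so these values cannot show whether same-numbered arrays share a source. The labels do not say so either.

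The excess of expressed probe sets per array in 4 h PT, 214 at a log2 signal of 8, was 138 at a limit of 9 and 145 after median centring (exact permutation p = 0.0286 for each), 308 at a limit of 7 (p = 0.629), and 76.1 to 293 without single arrays. The median log2 change over all probe sets was 0.0074, −0.02 after quantile normalization and −0.02 after median centring. Of 84 called genes named here, 40 kept their call in every alternative. The direction of ATCHX8, −0.08, was 0.037 after quantile normalization and −0.16 to 0.016 without single arrays (0.016 without 4 h PT replicate 2), and that of ACT1, 0.06, was −0.046 to 0.15 without single arrays (−0.046 without 4 h PT replicate 2). After quantile normalization AT3G28750, at 0.18, was at −0.052 and AT3G07820, at 0.22, at −0.060. No other gene named here changed direction. The cause of these shifts was not tested. The fold of a transcript near the floor of the array depends on the offset.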
